A study of Citrus maxima with 12 samples.

Results

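In the pomelo fruit libraries, 299 of 30123 gene IDs of the numbered annotation were at least 1 log2 unit higher in each of 3 groups of diseased fruit than in 2 libraries of Taoxi control fruit. Members were chosen by measured values. For each ID beginning with Cg, the mean FPKM of a group (fragment count corrected for gene length and library size) was taken as log2(mean FPKM + 1). A gene was a member where diseased Taoxi, diseased Jinlan and diseased Jinsha each exceeded Taoxi controls 2 and 3 by at least 1, and where the diseased Taoxi mean was at least 3 FPKM. The whole table held 32863 IDs, and 23 IDs outside the Cg series met the same thresholds and were not followed.

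The study concerned black spot disease in Jinggang honey pomelo (Citrus maxima) and sequenced RNA from fruit of 3 cultivars. Taoxi fruit was labelled control or disease, fruit of Jinlan and of Jinsha disease, which makes 4 groups of 3 libraries. The labels give no inoculum, time, part of the fruit or tree for these groups, and call the libraries of a group biosamples, so the spread behind each p-value is that of these libraries and may be partly technical. A further 6 columns of the table could be tied to no labelled sample and were not used. By their names they may be control libraries of Jinlan and Jinsha, which no label states. The labelled samples include control fruit of Taoxi alone, so within them cultivar and disease cannot be told apart where Jinlan or Jinsha is set against Taoxi controls. All 3 differences that define the members share the same 2 control libraries. The labelled tissue could not be checked against marker genes, because the table pairs no ID with a gene name. Library sums ran from 560349 to 577783 FPKM, and the read depth behind each value is unknown.

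Black spot is a fungal disease of citrus fruit. Plants sense fungal wall fragments and damage to their own walls through receptors at the cell surface. They respond by raising transcripts for antimicrobial proteins, oxidative enzymes, and the phenylpropanoid pathway that supplies lignin, coumarins and flavonoids, under control of salicylate, jasmonate and ethylene signalling. The same families also vary with ripening, wounding and cultivar. Which of the 299 IDs belong to such families is not stated here, since the IDs carry no annotation.

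The 299 genes were mostly weakly expressed in Taoxi controls 2 and 3 and moderately expressed in diseased fruit. Their median was 2.64 FPKM over controls 2 and 3, 12.9 FPKM in diseased Taoxi, 23.0 FPKM in diseased Jinlan and 27.9 FPKM in diseased Jinsha. Over all genes tested the corresponding medians were 10.2 FPKM in the controls, 10.8 FPKM in diseased Taoxi and 11.4 FPKM in diseased Jinsha. In controls 2 and 3, 71 members stood below a mean of 1 FPKM, among which 10 were listed at 0 in both libraries, 156 stood from 1 to 10 FPKM and 72 reached 10 FPKM. A mean of 100 FPKM was reached by 26 members in diseased Taoxi. In these bulk samples, a change in RNA per cell and a change in the number of cells of a type cannot be told apart.

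The differences that chose the members are given as a description. Diseased Taoxi exceeded controls 2 and 3 by a median of 1.52 log2 units (quartiles 1.23 and 2.10), diseased Jinlan by 2.33 (1.76 and 3.11) and diseased Jinsha by 2.53 (1.81 and 3.27), against medians of 0.04, 0.20 and 0.09 over all genes tested. All 3 differences were at least 2 log2 units in 59 members and at least 3 in 19. The Taoxi difference was the scarcest. Among 17421 genes tested, 3.43% were at least 1 log2 unit above controls 2 and 3 in diseased Taoxi, 16.1% in diseased Jinlan and 15.7% in diseased Jinsha. Of the 440 Cg IDs that met the threshold in diseased Taoxi at 3 FPKM or more, 320 also met it in Jinlan, 330 in Jinsha, 299 in both and 89 in neither. In 295 members controls 2 and 3 were both below all 9 diseased libraries, which held for 19.9% of all genes tested.

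At the edge of the rule, Cg9g009180 and Cg5g018690 were just inside, with a Taoxi difference of 1.0007 and 1.0009 log2 units. Just outside were Cg8g011470 at 0.9998 and Cg6g006330 at 0.9990. Cg9g009180 stood at 5.01 FPKM in controls 2 and 3, 11.02 FPKM in diseased Taoxi, 86.0 FPKM in Jinlan and 72.9 FPKM in Jinsha, so its place near the threshold came from Taoxi alone. Cg6g006330 stood at 23.1 FPKM in controls 2 and 3, 47.2 FPKM in diseased Taoxi, 54.9 FPKM in Jinlan and 47.3 FPKM in Jinsha, so its differences in the other cultivars, 1.21 and 1.004, were also small.

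CgUng005580 had the largest smallest difference of the 3. Taoxi controls 2 and 3 held it at 0.587 and 0.239 FPKM. Diseased Taoxi libraries held it at 77.8, 28.5 and 81.3 FPKM, Jinlan at 39.2, 49.5 and 41.9 FPKM and Jinsha at 45.3, 49.5 and 36.1 FPKM. All 9 diseased libraries thus lay far above controls 2 and 3, and the diseased cultivars overlapped one another. Taoxi control 1, which the rule left out, held CgUng005580 at 28.8 FPKM. Cg9g008180 followed, at 0 and 0.0961 FPKM in controls 2 and 3, at 20.4, 7.43 and 23.7 FPKM in diseased Taoxi, at 18.2, 26.1 and 18.9 FPKM in Jinlan, and in Jinsha at 22.0, 18.2 and 15.2 FPKM. Taoxi control 1 held Cg9g008180 at 11.4 FPKM. For both genes the second diseased Taoxi library was the lowest of its group, and Taoxi control 1 was above it. None of the 3 comparisons between diseased groups passed for either gene (limma adjusted p from 0.310 to 0.999 over both), which does not show that the cultivars had equal levels.

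The most abundant members in diseased Taoxi were Cg1g004610 and Cg7g012360. Cg1g004610 was at 76.2 and 36.3 FPKM in controls 2 and 3 and at 699, 792 and 785 FPKM in diseased Taoxi, against 333, 344 and 271 FPKM in Jinlan and 257, 238 and 184 FPKM in Jinsha. Its 3 diseased groups did not overlap, with Taoxi highest and Jinsha lowest. Taoxi control 1 held Cg1g004610 at 228 FPKM, within the range of the Jinsha libraries. The log2 difference from diseased Taoxi was -1.27 ± 0.13 in Jinlan (SE, limma adjusted p = 1.51e-05) and -1.75 ± 0.13 in Jinsha (SE, limma adjusted p = 1.39e-06). Cg7g012360 was already abundant in controls 2 and 3, at 366 and 264 FPKM. Taoxi control 1 held it at 902 FPKM, above the diseased Taoxi mean. Diseased Taoxi held 730 ± 195 FPKM, diseased Jinlan 997 ± 22.3 FPKM and diseased Jinsha 1202 ± 84.4 FPKM (SD, n = 3).

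**Figure D1:**
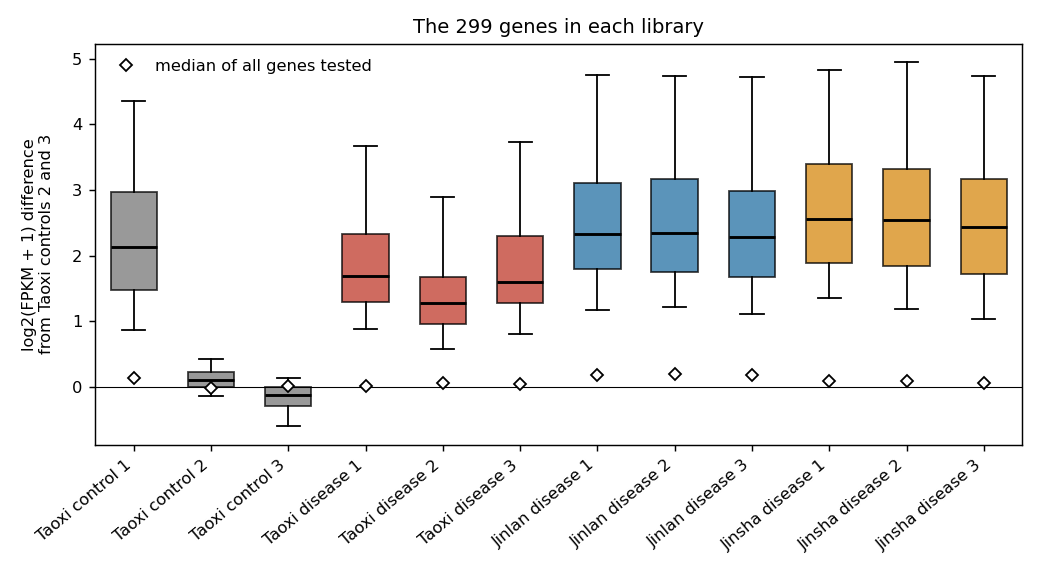
Boxes show the 299 genes in each of 12 libraries as the difference in log2(FPKM + 1) from the mean of Taoxi controls 2 and 3 (line, median; box, quartiles; whiskers, 5th and 95th percentiles), and diamonds the median of all genes tested. Taoxi control 1 has a median of 2.14, between the 3 diseased Taoxi libraries (1.28 to 1.70) and the 6 Jinlan and Jinsha libraries (2.28 to 2.56).

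Taoxi control 1, the library that the rule left out, did not hold these genes at the level of the other Taoxi controls. Its median over the members was 21.0 FPKM, against 3.32 FPKM in control 2, 2.23 FPKM in control 3 and 9.09 to 13.9 FPKM in the diseased Taoxi libraries. It exceeded both other controls in 298 of 299 members. The rule chose members for low values in controls 2 and 3, so a library left out can lie above them more often here than over all genes. Taoxi control 1 was at least 1 log2 unit above the mean of controls 2 and 3 in 272 members (91.0%), against 13.2% of the 17421 genes tested. The median excess was 2.14 log2 units over the members and 0.13 over all genes tested. The set is therefore named here by controls 2 and 3, and not by the Taoxi control group as labelled. With Taoxi control 1 alone as the control, 2 of the 299 members still met the rule, and 10 Cg IDs did in all. With all 3 controls averaged, 43 IDs met it, of which 42 were members.

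Among diseased groups, Taoxi control 1 lay nearest to Jinlan in these genes. Its distance from the group mean had a median of 0.40 log2 units to diseased Jinlan, 0.45 to diseased Jinsha, 0.73 to diseased Taoxi and 2.14 to controls 2 and 3. Jinlan was the nearest of the 4 group means for 127 members, Jinsha for 98, diseased Taoxi for 69 and controls 2 and 3 for 5. In 250 members the library fell within the range of the 9 diseased libraries, near the 85.6% of all genes tested, and in 34 it fell below all of them. Across all genes tested this library correlated with the 3 diseased Jinlan libraries at 0.974 to 0.976 (Pearson's r across genes). Its correlation was 0.957 to 0.963 with diseased Jinsha and 0.909 to 0.914 with diseased Taoxi. With Taoxi controls 2 and 3 it was 0.895 and 0.887.

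Sets chosen in the same way but with another pattern differed in this library. For the 89 genes that met the threshold in diseased Taoxi and in neither other cultivar, Taoxi control 1 differed from controls 2 and 3 by a median of -0.07 log2 units, and 6 of them (6.74%) were at least 1 unit higher in it. For the 1371 genes that met the threshold in Jinlan and Jinsha, with at least 3 FPKM in Jinlan, but not in diseased Taoxi, the median was 1.45 and 1130 (82.4%) were at least 1 unit higher. A single library gives no test of these differences. Whether a fruit or a library behind Taoxi control 1 carries the label of another was not tested.

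**Figure D2:**
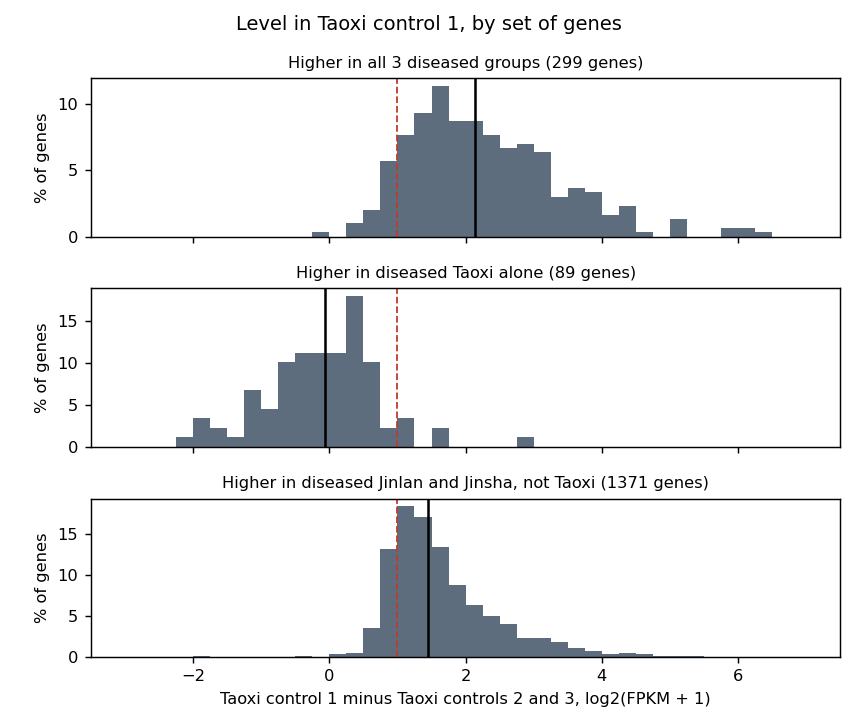
Histograms give the percentage of genes by the difference between Taoxi control 1 and the mean of Taoxi controls 2 and 3 in log2(FPKM + 1), for the 299 genes, for 89 genes higher in diseased Taoxi alone and for 1371 genes higher in diseased Jinlan and Jinsha but not Taoxi. Black lines mark the medians (2.14, -0.07 and 1.45) and the dashed line a difference of 1.

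The members with the widest gap between Taoxi control 1 and the other controls were Cg4g001710 and Cg1g010610. Cg4g001710 was listed at 0 in controls 2 and 3, whereas Taoxi control 1 held it at 86.0 FPKM. In diseased fruit it was at 5.09, 6.79 and 10.5 FPKM in Taoxi, at 64.6, 77.3 and 77.8 FPKM in Jinlan, and in Jinsha at 91.3, 96.8 and 107 FPKM. Taoxi control 1 thus lay with Jinlan and Jinsha and not with diseased Taoxi.

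At the other end, Cg2g001470 and CgUng020300 were the members least raised in Taoxi control 1. Cg2g001470 was at 13.0, 16.7 and 13.1 FPKM in Taoxi controls 1, 2 and 3, so the 3 controls were alike. Diseased Taoxi held 32.2 ± 14.4 FPKM, diseased Jinlan 34.9 ± 8.39 FPKM and diseased Jinsha 34.1 ± 8.61 FPKM (SD, n = 3). CgUng020300 was at 0.449, 0 and 0.368 FPKM in Taoxi controls 1, 2 and 3. Its diseased values were uneven, at 0.776, 9.09 and 0.483 FPKM in Taoxi, 0.501, 2.72 and 6.22 FPKM in Jinlan and 0.757, 0.536 and 6.85 FPKM in Jinsha. In Taoxi and in Jinsha 1 library stood far above the others.

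The members were spread more widely within diseased Taoxi than within the other diseased groups. The rule chose members by the means of these same libraries. It can therefore favour genes with uneven values in a group, and the spreads and counts here only describe the set. The median SD between the 3 libraries was 0.41 log2 units in diseased Taoxi, 0.11 in Jinlan and 0.16 in Jinsha, against 0.12, 0.09 and 0.10 over all genes tested. Diseased Taoxi 2 was the low library. It was the lowest of its group in 210 members (70.2%), against 26.3% of all genes tested, and its median deviation from the group mean was -0.37 log2 units over the members and 0.02 over all genes tested. It was at least 1 log2 unit above controls 2 and 3 in 216 members, where diseased Taoxi 1 and 3 were so in 271 and 267. Smaller shifts of the same kind were seen elsewhere. Jinlan 3 was lowest in 175 members and Jinsha 3 in 179 (37.8% and 43.6% of all genes tested), and Taoxi control 3 was below control 2 in 216 members (43.4% of all genes tested).

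Diseased cultivars were then compared with one another. Each of these differences is the difference between 2 of the quantities on which the rule set a threshold, so the rule constrains them, and the members' counts describe the set without being independent of how it was chosen. The p-values are those of single genes in a fit over all genes. All 299 members passed the filter of 1 FPKM in at least 3 of the 9 diseased libraries, and limma was fitted over all 17195 genes that did, with no control library. The whole transcriptome had a median log2 difference of 0.16 for Jinlan against Taoxi, of 0.12 for Jinlan against Jinsha and of 0.05 for Jinsha against Taoxi. Member medians are therefore also given relative to these.

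The threshold was met least often in diseased Taoxi (3.43% of all genes tested, against 16.1% and 15.7%), and the members' median there was 1.52 log2 units against a threshold of 1. Nothing is read from the direction of the members' counts against diseased Taoxi. In Jinlan 190 members (63.5%) were higher and 18 lower (limma, adjusted p below 0.05), against 44.3% and 26.0% of all genes tested. In either direction 69.6% of members passed, near the 70.3% of all genes. The median over members was 0.72 log2 units, or 0.57 above the median of all genes. In Jinsha 194 members (64.9%) were higher and 17 lower, against 38.1% and 33.1% of all genes, with a median of 0.85, or 0.80 above all genes. In either direction 70.6% passed, near the 71.2% of all genes. Differences of at least 2-fold that passed were 114 higher and 8 lower in Jinlan (40.8% of members in either direction, against 20.0% of all genes, 11.6% higher and 8.38% lower). In Jinsha they were 134 higher and 7 lower (47.2% of members, against 20.7% of all genes, 11.9% higher and 8.76% lower).

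Both comparisons share the diseased Taoxi libraries, and diseased Taoxi 2 was low in these genes. Without it, 172 members were higher and 39 lower in Jinlan (44.0% and 23.5% of all genes), and 192 and 32 in Jinsha (38.0% and 29.8% of all genes). With the 3 Taoxi controls added to the fit, 59 were higher and 11 lower in Jinlan, 23.4% of members against 58.2% of all genes (36.5% higher and 21.7% lower). In Jinsha 92 were then higher and 9 lower, 33.8% of members against 58.2% of all genes (29.6% and 28.6%). Without Taoxi control 1 in that fit the counts were 189 and 16 in Jinlan (44.1% and 26.3% of all genes), and 195 and 17 in Jinsha (37.9% and 33.4%).

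By group means, diseased Taoxi was the lowest of the 3 diseased groups in 233 members and the highest in 32, where it was so in 46.7% and 34.2% of all genes tested. Jinsha had the highest mean in 159 members and Jinlan in 108, against 25.4% and 40.4% of all genes tested. These ranks use the group means on which the rule set its thresholds, so they too only describe the set.

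**Figure D3:**
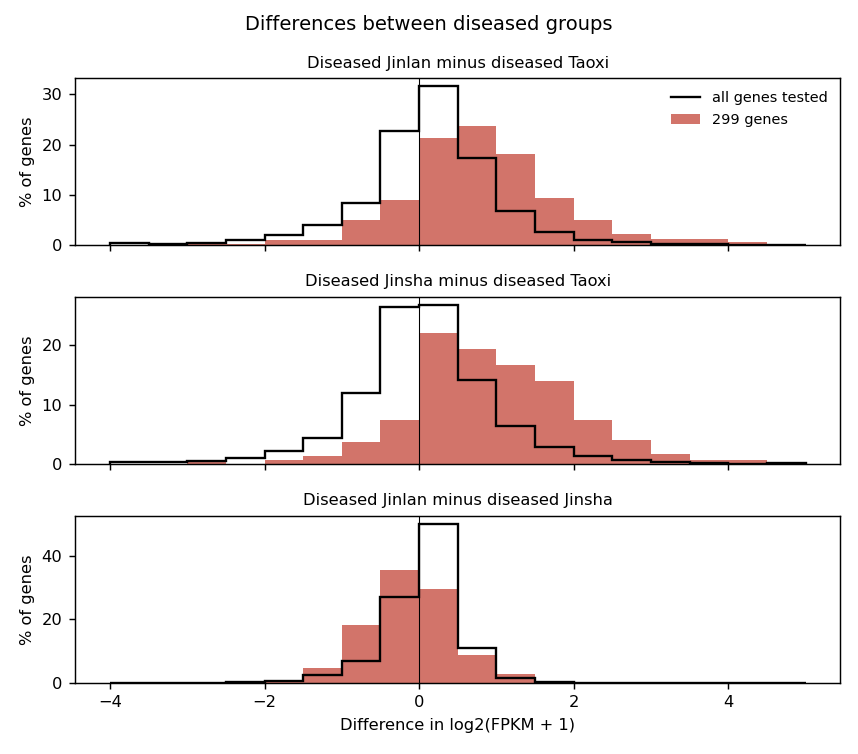
Bars give the percentage of the 299 genes, and black outlines that of all 17195 genes tested, by the difference between diseased groups in log2(FPKM + 1), for Jinlan minus Taoxi, Jinsha minus Taoxi and Jinlan minus Jinsha (values beyond the axis are placed in the end bins). The members' medians are 0.72, 0.85 and -0.17, those of all genes 0.16, 0.05 and 0.12, and the first 2 panels share the diseased Taoxi libraries.

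Cg1g010610 and Cg1g020210 had the largest rises in Jinlan over diseased Taoxi. Cg1g010610 had 1.95 and 2.38 FPKM in controls 2 and 3, against 229 FPKM in Taoxi control 1. Diseased Taoxi held it at 16.7, 8.75 and 13.3 FPKM, Jinlan at 279, 279 and 258 FPKM and Jinsha at 236, 215 and 243 FPKM. Diseased Taoxi thus lay between controls 2 and 3 and the other 2 cultivars. The log2 difference from diseased Taoxi was 4.34 ± 0.17 in Jinlan (SE, limma adjusted p = 1.93e-08) and 4.10 ± 0.17 in Jinsha (SE, limma adjusted p = 2.29e-08).

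Cg1g020210 had the same order, at 7.46, 7.26 and 12.1 FPKM in diseased Taoxi and at 160, 166 and 145 FPKM in Jinlan, a log2 difference of 4.02 ± 0.17 (SE, limma adjusted p = 2.35e-08). Taoxi control 1 held it at 112 FPKM. Cg2g029780, which with Cg1g010610 rose most in Jinsha, was at 20.0, 6.67 and 10.99 FPKM in diseased Taoxi and at 203, 208 and 240 FPKM in Jinsha, a log2 difference of 4.13 ± 0.28 (SE, limma adjusted p = 5.63e-07). These genes met the rule in diseased Taoxi with differences of 1.37 to 2.14 log2 units from controls 2 and 3, and their differences between diseased cultivars were larger.

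The opposite order, with diseased Taoxi highest, was seen in few members. Against Jinlan the largest falls were those of Cg9g028760 and Cg5g036910. Cg9g028760 was listed at 0 in controls 2 and 3, while Taoxi control 1 held it at 1.02 FPKM. Diseased Taoxi held it at 26.7, 5.06 and 16.5 FPKM, Jinlan at 0.950, 1.21 and 1.22 FPKM and Jinsha at 7.72, 7.21 and 4.25 FPKM. Jinlan lay below every diseased Taoxi library, with a log2 difference of -2.75 ± 0.45 (SE, limma adjusted p = 0.000313), whereas Jinsha overlapped Taoxi (limma adjusted p = 0.0703). Cg5g036910 was at 25.1, 7.61 and 39.6 FPKM in diseased Taoxi and at 3.85, 5.08 and 3.15 FPKM in Jinlan, a log2 difference of -2.07 ± 0.47 (SE, limma adjusted p = 0.00280).

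Against Jinsha the largest falls from diseased Taoxi were those of Cg2g002070 and Cg1g017890. Cg2g002070 was at 25.7, 25.2 and 79.2 FPKM in diseased Taoxi, at 6.79, 4.38 and 2.51 FPKM in Jinsha and at 10.6, 12.2 and 9.69 FPKM in Jinlan. The 3 groups did not overlap, and the log2 difference of Jinsha from Taoxi was -2.86 ± 0.41 (SE, limma adjusted p = 0.000125). Its controls 2 and 3 were far apart, at 1.89 and 0.0995 FPKM. Cg1g017890 was at 6.28, 10.5 and 6.11 FPKM in diseased Taoxi and at 1.32, 2.69 and 0.738 FPKM in Jinsha, a log2 difference of -1.77 ± 0.30 (SE, limma adjusted p = 0.000446).

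**Figure D4:**
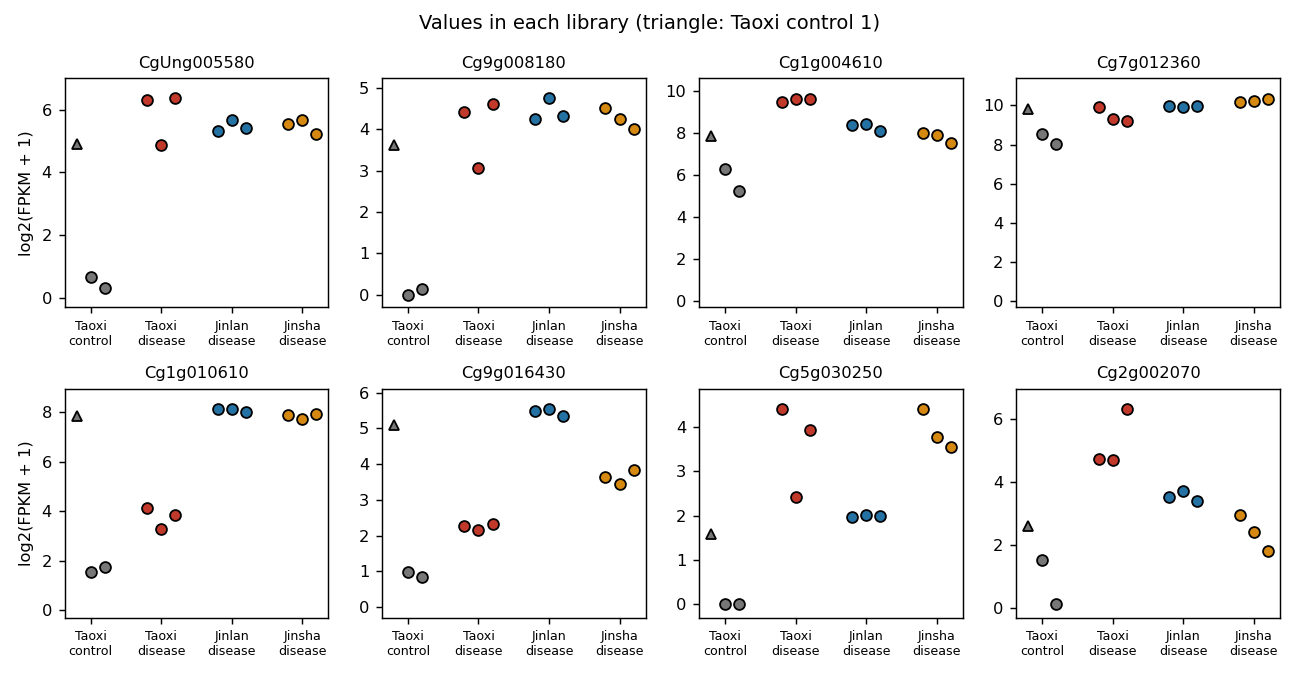
Points give log2(FPKM + 1) of 8 of the genes described, in each of the 12 libraries and by group, with a triangle for Taoxi control 1. In Cg1g010610 and Cg9g016430 diseased Taoxi lies nearer to controls 2 and 3 than Jinlan does, and in Cg1g004610 and Cg2g002070 diseased Taoxi is the highest group.

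Between Jinlan and Jinsha more members were lower in Jinlan than higher. In Jinlan 34 members (11.4%) were higher and 63 (21.1%) lower relative to Jinsha (adjusted p below 0.05 in limma), against 33.5% and 16.1% of all genes tested. In either direction 97 members passed (32.4%, against 49.6% of all genes), and 202 did not. The median over members was -0.17 log2 units, or -0.28 relative to the median of all genes. At least 2-fold were 9 higher and 15 lower, 8.03% of members against 5.21% of all genes, of which 1.79% were higher and 3.42% lower, so at this size both the members and all genes were more often lower in Jinlan. With median-ratio scaling 26 members were higher and 92 lower, against 21.2% and 22.8% of all genes, and genes higher in Jinlan then made up 22.0% of the members that passed (35.1% without scaling) and 48.3% of all genes that passed (67.5%). How many passed depended on the libraries that set the spread. A fit with the 3 Taoxi controls left 0 higher and 7 lower, 2.34% of members against 24.9% of all genes (16.9% higher and 7.98% lower). A fit of the Jinlan and Jinsha libraries alone, without the widely spread diseased Taoxi values, gave 68 higher and 118 lower, 62.2% of members against 55.7% of all genes (37.2% higher and 18.5% lower). The share of members that passed was thus below that of all genes in one fit and above it in another, and is not read as a property of the members.

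Cg9g016430 and Cg4g014890 were the members most raised in Jinlan over Jinsha. Cg9g016430 was at 43.6, 45.7 and 39.4 FPKM in Jinlan and 11.4, 9.95 and 13.1 FPKM in Jinsha, a log2 difference of 1.82 ± 0.10 (SE, limma adjusted p = 1.66e-06). It was lower still in diseased Taoxi, at 3.79, 3.45 and 3.98 FPKM. Taoxi control 1, at 33.2 FPKM, was closer to Jinlan than to any other group, and controls 2 and 3 were at 0.958 and 0.794 FPKM. Cg4g014890 ran in the same order, at 48.8, 52.6 and 42.8 FPKM in Jinlan, 18.1, 18.7 and 16.2 FPKM in Jinsha and 2.89, 3.26 and 3.83 FPKM in diseased Taoxi (Jinlan against Jinsha 1.39 ± 0.10, SE, limma adjusted p = 8.11e-06). With the 3 Taoxi controls in the fit neither difference passed (limma adjusted p = 0.158 and 0.286).

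Cg5g030250 and Cg9g028760 were the members lowest in Jinlan relative to Jinsha. Cg5g030250 was at 2.95, 3.03 and 2.96 FPKM in Jinlan and 20.3, 12.8 and 10.7 FPKM in Jinsha, a log2 difference of -1.92 ± 0.42 (SE, limma adjusted p = 0.00400). Diseased Taoxi spread from 4.39 to 20.2 FPKM, overlapping Jinsha and not Jinlan, and Taoxi controls 2 and 3 were listed at 0. For Cg9g028760, described above, the log2 difference was -1.76 ± 0.45 (SE, limma adjusted p = 0.00872).

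The members were spread over all ID series of the annotation. They made up from 1.31% (IDs beginning Cg7g) to 2.71% (CgUng) of the tested IDs of a series. Members were numbered next to a member more often than other tested Cg IDs were. Another member was the next or previous ID of the file's numbering for 39 of 299 members (13.0%), and for 293 of 15975 other tested Cg IDs (1.83%). These 39 formed 15 pairs and 3 runs of 3. Neighbouring numbers were read from the IDs alone, with no coordinates. Whether such IDs are near-identical copies whose reads the authors' counting could divide was not tested, so their values may not be independent.

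Neighbours had like profiles in some runs and not in others, chosen here after their values were seen. Cg1g010620, next to Cg1g010610, stood at 3.92 FPKM in controls 2 and 3, 23.7 FPKM in diseased Taoxi, 328 FPKM in Jinlan and 261 FPKM in Jinsha. In the run of Cg1g027560, Cg1g027570 and Cg1g027580, controls 2 and 3 stood at 55.1, 11.8 and 20.4 FPKM, diseased Taoxi at 297, 60.4 and 109 FPKM, Jinlan at 957, 190 and 343 FPKM and Jinsha at 745, 168 and 271 FPKM, so the order of the groups was the same at each of the 3 IDs. The pair Cg5g010000 and Cg5g010010 parted between cultivars. Cg5g010000 was at 47.8 FPKM in diseased Taoxi and 94.8 FPKM in Jinlan, while Cg5g010010 was at 38.6 FPKM in diseased Taoxi and 13.3 FPKM in Jinlan.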

How the data were processed

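Fruit RNA was sequenced in 12 libraries of 4 groups. Per the labels' protocols, an RNeasy kit was used for the RNA and a SMARTer kit for the libraries. The authors deposited 1 table of FPKM values per gene and library. No aligner, counter, build or annotation is named: these were not given in the sources used here. Another 6 columns match none of these samples and were not used. Columns were matched to samples by title.

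Values were taken as log2(FPKM + 1). The table holds no read counts, so no counting interval is given. A gene was tested if it reached 1 FPKM in 3 libraries: 17195 for fits over the 9 diseased libraries, and 17421 over all 12 for background shares. Comparisons between diseased groups used limma 3.58.1 in R 4.3.3 (one mean per group, mean-variance trend), with two-sided Benjamini-Hochberg adjusted p-values over all genes tested. Differences from Taoxi controls 2 and 3 chose the members and were not tested.

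The members, tests and alternatives were chosen with earlier results of these data known. Named by rule were the 2 genes with the largest smallest difference, the 2 most abundant in diseased Taoxi, the 2 largest rises and falls of each comparison among genes that passed without overlap, the 2 highest and lowest in Taoxi control 1, and 2 on each side of the threshold. Figures were drawn with matplotlib 3.10.9.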

Additional observations from a re-analysis of the deposited data

How the results depend on the processing

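The number of genes that met the rule ran from 267 to 381 when 1 library was left out, 247 to 298 of them members, and from 261 to 418 with other pseudocounts, scalings or log averaging. It was 43 with all 3 Taoxi controls and 10 with Taoxi control 1 alone (2 of them members), an alternative added after the data had been seen. With all 12 libraries in the fit the members that passed fell from 97 to 7 for Jinlan against Jinsha (24.9% of all genes). They fell from 208 to 70 for Jinlan against Taoxi and from 211 to 101 for Jinsha against Taoxi (58.2% of all genes in each). Without Taoxi control 1 in that fit they were 94, 205 and 212, against 49.5%, 70.4% and 71.3% of all genes. A fit of the compared groups alone gave 186 for Jinlan against Jinsha (55.7% of all genes). A 2-fold threshold left 24, 122 and 141, against 5.21%, 20.0% and 20.7% of all genes. Leaving out 1 library gave 79 to 92, 187 to 218 and 197 to 224. Of all genes 41.0% to 44.3%, 65.3% to 68.2% and 66.4% to 69.6% then passed. The replicate number as a block gave 101, 204 and 214 (33.8%, 68.2% and 71.6% of members). Of all genes 46.1%, 68.2% and 69.4% passed in that fit. Deviations of same-numbered libraries correlated at -0.21 to 0.02, and those of libraries with other numbers at -0.15 to 0.22. Whether same-numbered libraries shared more than a number was not tested further. The median excess of Taoxi control 1 was 2.63 with a pseudocount of 0.1 and 1.97 with quantile normalization, and 1.99 to 2.30 without 1 control. The median of Jinlan minus Jinsha was -0.30 with median-ratio scaling and -0.19 to -0.12 without 1 library. Of 228 alternative values of the genes named in comparisons, none was reversed and 2 no longer passed, both with all 12 libraries in the fit. Depth is unknown, so low values have no stated precision.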
